A study of Homo sapiens with 6 samples.

Results

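Lysosomal genes were examined in 22Rv1-ABHD5 cells, through 44 genes that encode lysosomal hydrolases and their cofactors, lysosomal membrane proteins, and subunits of the vacuolar ATPase (V-ATPase). The members were found by gene symbol in the deposited table, which lists 27470 genes, and all 44 were present. 22Rv1 is a human castration-resistant prostate cancer line, and the engineered cells carry an ABHD5 transgene behind a doxycycline (Dox)-inducible promoter, introduced by pInducer20-ABHD5 lentivirus and drug selection. Control libraries (n = 3) came from cells cultured without Dox and OE libraries (n = 3) from cells cultured with Dox. The genotype labels of these groups are control and overexpressing ABHD5. The same transgenic line was used for both groups, so the control cells also carry the uninduced transgene, and the culture time given is 48 h. Parent cells with Dox were not analysed here, so the action of Dox and that of ABHD5 cannot be told apart. The paper reports, as data not shown, that Dox changed parent cell growth negligibly, which does not cover RNA. Whether the 3 libraries of a group came from separate cultures is not given, so p-values measure the spread between these libraries, which may be technical. RNA was read by 3ʹ mRNA sequencing, which counts reads near the poly(A) end of each transcript. The reads report mRNA abundance and not lysosome number, enzyme activity or pH.

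Lysosomes break down proteins, glycans, sulfated sugars, lipids and nucleic acids with acid hydrolases, which are delivered to them from the Golgi. The V-ATPase acidifies the lumen: its membrane sector V0 conducts protons, and its cytosolic sector V1 hydrolyses ATP to drive them. Many lysosomal genes carry the CLEAR element in their promoters, the binding site of TFEB, TFE3 and MITF, and mTORC1 at the lysosomal surface holds TFEB in the cytosol when nutrients are plentiful.

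Counts on genes ranged from 3394672 to 5988151 per library without Dox and from 3460471 to 7271771 with Dox. Levels are given as CPM, read counts relative to the library total as adjusted by TMM (a scaling that assumes most genes to be alike between libraries), and folds are given as log2 of the level with Dox over that without Dox. ABHD5, the coactivator of the triglyceride lipase ATGL and the target of the design, had 63.5, 58.0 and 62.8 CPM without Dox and 126, 131 and 91.7 CPM with Dox. Its log2 fold change was 0.91 (SE 0.15, adjusted p = 1.98e-04), and endogenous and transgenic ABHD5 transcripts cannot be told apart in these counts. The 9 luminal prostate markers were all detected, with 1548 to 1646 CPM in sum without Dox and 985 to 1092 CPM with Dox. Among markers of other cells, leukocyte markers summed to at most 0.93 CPM in any library, with CSF1R and CD163 at 0 throughout, all 3 endothelial markers were at 0, and the 4 fibroblast markers summed to 1.55 to 3.92 CPM without Dox and 3.62 to 7.62 CPM with Dox. The share of reads assigned to no annotated feature was 32.5% to 34.6% in the control libraries and 35.6% to 39.5% in the OE libraries. Where these reads lie is not given, and the part of these differences in the results below was not tested.

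Of the 44 lysosomal genes, 43 were abundant enough to test. The exception was CTSS, a cathepsin of antigen-presenting cells, with 1 to 3 counts in each library. In the comparison with Dox against without Dox, 11 of the 43 rose and 2 fell, with an adjusted p under 0.05 in the quasi-likelihood test of edgeR, adjusted by Benjamini-Hochberg over all 12233 genes tested. The corresponding shares of the members were 25.6% higher and 4.65% lower. Over all genes tested 25.5% were called, 11.9% higher with Dox and 13.7% lower. The total share of members called was 30.2%, close to that of all genes. The median log2 fold change of the members was 0.17, and 30 of 43 (69.8%) had a positive value, whereas the median over all genes was 0.02 and 51.5% were positive. The members that rose were 4 lumenal enzymes (CTSB, TPP1, ARSA and SGSH), the cofactors PSAP and GM2A, GRN, and 4 V1 subunits, while none of the 6 membrane proteins and none of the 5 V0 subunits passed the test.

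The count of members that rose depended on single libraries. Among fits that left out 1 control library, it was 5 without replicate 1, 7 without replicate 2 and 7 without replicate 3, where 7.53%, 8.47% and 8.86% of all genes tested were called higher. Among fits that left out 1 OE library, it was 6 without replicate 1, 14 without replicate 2 and 7 without replicate 3, against 9.09%, 11.6% and 9.87% of all genes. CTSB, TPP1, ARSA and PSAP kept an adjusted p under 0.05 in all 14 alternatives. With scaling to library totals alone, 15 members were higher and 0 lower, against 2179 genes (17.8%) higher and 1136 (9.29%) lower over all genes. The main scaling gave 1451 higher and 1674 lower. The scaling to totals moved the median of all genes to 0.14 and that of the members to 0.29.

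**Figure D1:**
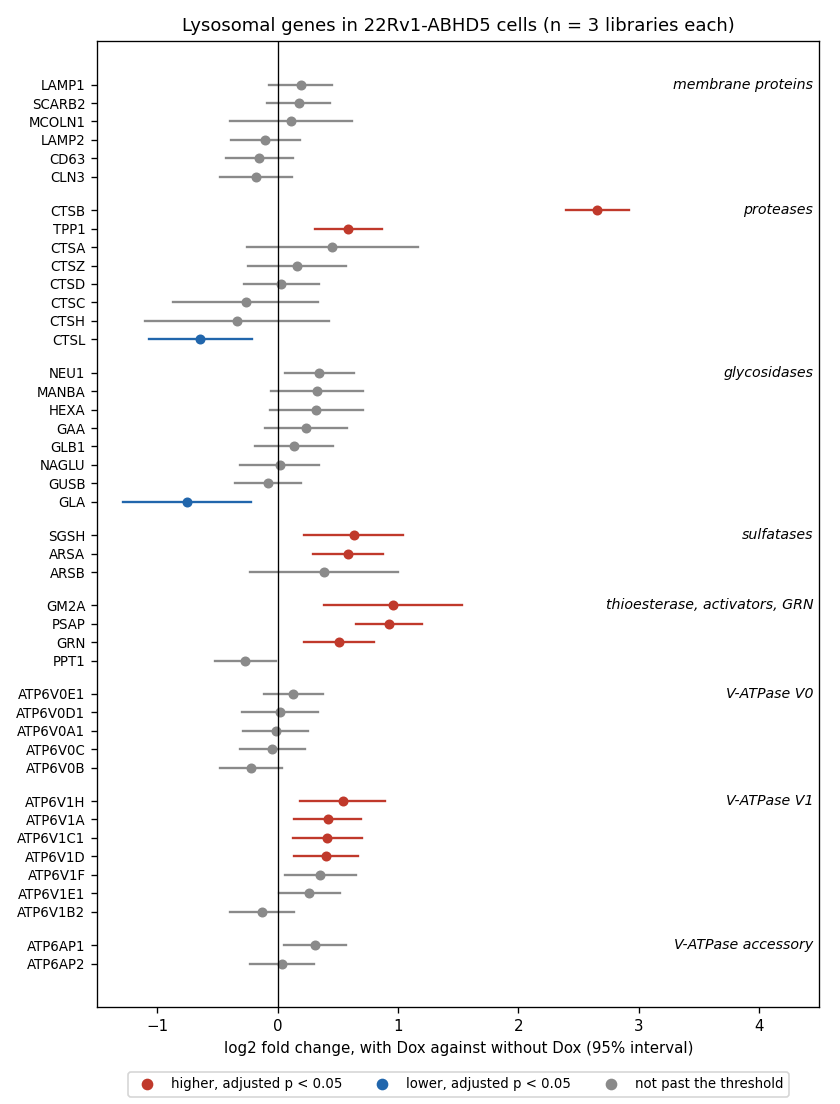
Log2 fold change with Dox against without Dox (horizontal axis) for the 43 members tested, ordered by role, with 95% intervals from edgeR (3 libraries per group); red marks an adjusted p under 0.05 and a rise, blue a fall, grey neither. CTSB stands at 2.66, 10 other members are called at 0.40 to 0.96, and CTSL and GLA are the 2 called below 0.

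To show what lies upstream of the members, promoters from RefSeq (GRCh38.p14) were matched by symbol. Each sequence in that table spans 250 bases before to 50 bases after a gene's start, and 30 of the 44 members had at least 1. The 14 without an entry were LAMP2, CTSB, CTSS, HEXA, NAGLU, MANBA, ARSA, SGSH, PSAP, ATP6V0E1, ATP6V1A, ATP6V1B2, ATP6V1C1 and ATP6V1H. The motifs searched, on both strands, were TCACGTGA (the inner part of the CLEAR element), TCATGTGA (the M-box, another site of the MITF family) and CACGTG (the E-box core, which is part of every TCACGTGA). The 4 members that rose and had an entry are shown first, as 100 bases 5ʹ to 3ʹ on the strand of the gene, with motifs in capitals. TCACATGA is TCATGTGA read on the opposite strand.
TPP1: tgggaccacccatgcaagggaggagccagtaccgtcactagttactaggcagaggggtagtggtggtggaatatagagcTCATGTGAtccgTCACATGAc
GRN: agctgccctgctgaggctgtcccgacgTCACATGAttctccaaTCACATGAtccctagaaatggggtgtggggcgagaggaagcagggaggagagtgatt
GM2A: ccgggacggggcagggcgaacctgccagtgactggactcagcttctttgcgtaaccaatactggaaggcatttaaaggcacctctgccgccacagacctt
ATP6V1D: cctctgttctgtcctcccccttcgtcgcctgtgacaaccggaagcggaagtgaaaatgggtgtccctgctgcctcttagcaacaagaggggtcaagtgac

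The TPP1 bases are chr11:6619423-6619522 on the minus strand, the GRN bases chr17:44345052-44345151 on the plus strand, the GM2A bases chr5:151253085-151253184 on the plus strand and the ATP6V1D bases chr14:67359805-67359904 on the minus strand. Each window ends at the base before the start, except that of GRN, which ends 151 bases before it to include the motifs. TPP1 and GRN each held TCATGTGA at a pair of places, 21 and 9 bases before the start for TPP1 and 223 and 207 bases before it for GRN. GM2A and ATP6V1D held none of the 3 motifs in their 300 bases.

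The 6 members whose promoters held TCACGTGA are shown next, because this motif is the inner part of the CLEAR element. Only exact matches were searched, so these 6 are not all members that may hold a CLEAR element. None of the 6 passed the test with Dox, beside 25.5% called over all genes tested. Of the 11 members that rose, 7 had no promoter entry and were not searched. The log2 fold changes of the 6 were -0.18 for CLN3, 0.02 for ATP6V0D1, 0.11 for MCOLN1, 0.19 for LAMP1, 0.24 for GAA and 0.45 for CTSA.
LAMP1: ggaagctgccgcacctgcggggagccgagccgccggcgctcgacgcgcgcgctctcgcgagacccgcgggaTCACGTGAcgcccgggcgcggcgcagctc
MCOLN1: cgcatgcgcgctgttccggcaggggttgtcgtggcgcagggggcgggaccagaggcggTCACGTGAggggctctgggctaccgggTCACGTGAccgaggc
CLN3: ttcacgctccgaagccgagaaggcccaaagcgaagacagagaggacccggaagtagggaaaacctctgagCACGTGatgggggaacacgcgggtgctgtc
CTSA: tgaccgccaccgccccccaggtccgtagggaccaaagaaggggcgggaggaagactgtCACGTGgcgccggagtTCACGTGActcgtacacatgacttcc
GAA: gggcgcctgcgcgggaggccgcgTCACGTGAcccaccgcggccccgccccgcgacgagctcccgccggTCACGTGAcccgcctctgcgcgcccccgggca
ATP6V0D1: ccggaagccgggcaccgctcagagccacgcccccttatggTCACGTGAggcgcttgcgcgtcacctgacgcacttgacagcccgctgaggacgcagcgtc

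All 6 windows end at the base before the start. They are chr13:113297139-113297238 on the plus strand for LAMP1, chr19:7522524-7522623 on the plus strand for MCOLN1 and chr16:28492075-28492174 on the minus strand for CLN3. The others are chr20:45891235-45891334 on the plus strand for CTSA, chr17:80101481-80101580 on the plus strand for GAA and chr16:67481158-67481257 on the minus strand for ATP6V0D1. In LAMP1 a further TCACGTGA begins 2 bases before the start, and in CLN3 the TCACGTGA also begins 2 bases before it, so that these copies run past the bases shown.

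TCACGTGA occurred in 20% of the 30 members with a promoter, in 11.7% of 128 other lysosome-related genes and in 2.36% of the 9332 tested genes with a promoter. Of all 27305 genes with a promoter in the table, 1.18% held it. Each gene was counted once, if any of its promoters held the motif. TCATGTGA occurred in 5 of the 30 members (16.7%), which were CD63, TPP1, PPT1, GRN and ATP6V0C. It occurred in 1.26% of the tested genes with a promoter and in 1.24% of all genes with a promoter. CACGTG occurred in 11 of the 30 members (36.7%), in 12.9% of those tested genes and in 8.77% of all genes with a promoter. Among all tested genes with TCACGTGA (n = 220), 25 were higher and 28 lower with Dox, or 24.1% called, and their median log2 fold change was 0.05. Of tested genes with a promoter that lacked it (n = 9112), 26% were called. Among all tested genes with TCATGTGA (n = 118), 17 were higher and 19 lower with Dox, with a median log2 fold change of 0.02. Of the 5 members with TCATGTGA, 2 were higher and 0 lower, with a median of -0.05. Of 9 other lysosome genes with it, 1 was higher and 2 lower. A motif match describes these letters only and was not a measure of binding.

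**Figure D2:**
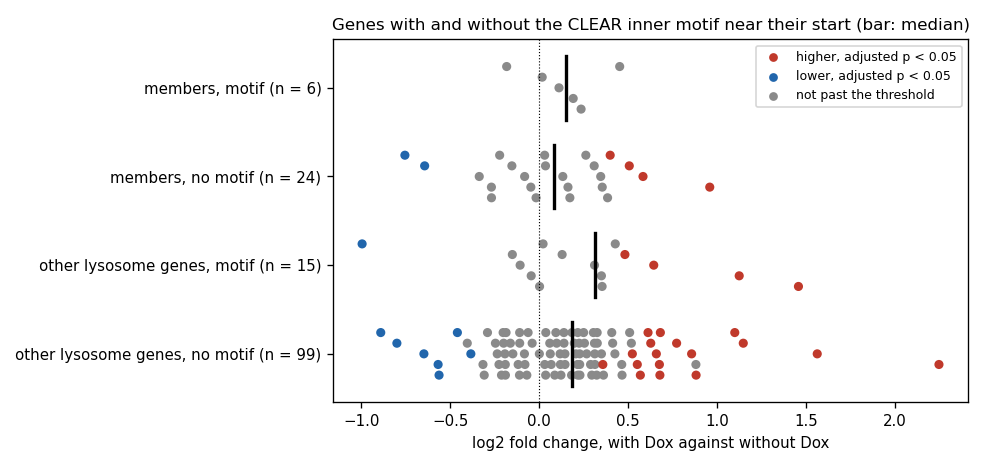
Log2 fold change with Dox against without Dox (horizontal axis) for lysosomal genes with and without TCACGTGA in a promoter; each point is 1 gene, bars are medians and colours give the call. The 6 members with the motif are all grey, from -0.18 to 0.45, and of the 15 other lysosome genes with it 4 are red and 1 is blue (of the 99 without it, 17 are red and 7 blue).

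Among the proteases, CTSB and TPP1 rose, CTSL fell, and 5 others did not pass the test. The shares over all genes tested were 11.9% higher and 13.7% lower. CTSB encodes cathepsin B, a cysteine protease of the lysosome lumen. It had 57.2, 56.8 and 56.7 CPM without Dox and 361, 355 and 360 CPM with Dox. The libraries of each condition lay close together, and the groups were far apart. The log2 fold change was 2.66 (SE 0.12, adjusted p = 7.93e-11), a 6.30-fold rise, and it ranged from 2.64 to 2.78 over the 14 alternatives. TPP1, tripeptidyl peptidase 1, removes tripeptides from protein ends and is deficient in a childhood neuronal ceroid lipofuscinosis. Its levels were 61.9, 80.0 and 71.7 CPM without Dox and 111, 104 and 105 CPM with Dox, with no overlap. This was a log2 fold change of 0.58 (SE 0.13, adjusted p = 0.00337), and 0.48 to 0.71 over the alternatives.

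CTSL, cathepsin L, another lysosomal cysteine protease, had 38.9, 23.9 and 42.8 CPM without Dox and 21.7, 19.8 and 26.1 CPM with Dox. The groups overlapped, since replicate 2 without Dox lay below replicate 3 with Dox. On the log2 scale the difference was -0.64 (SE 0.20, adjusted p = 0.0267), opposite in direction to CTSB. The call was lost without replicate 1 (-0.59, adjusted p = 0.0930) or 3 (-0.47, 0.142) of the control libraries and without replicate 1 (-0.61, 0.0880) or 2 (-0.57, 0.0572) of the OE libraries. Over all 14 alternatives the adjusted p of CTSL ran from 0.00264 to 0.142. CTSD, the major lysosomal aspartic protease, had 353 to 540 CPM without Dox and 416 to 468 CPM with Dox, and a log2 fold change of 0.03 (95% interval -0.28 to 0.34). The other 4 proteases, CTSA, CTSC, CTSH and CTSZ, had log2 fold changes of -0.34 to 0.45. In GENCODE 44, CTSZ shares 6136 exon bases with NELFCD and CTSA 959 with NEURL2, both on the opposite strand, and the use of strand in counting is not stated.

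Of the cofactors PSAP and GM2A, the progranulin gene GRN and the thioesterase gene PPT1, 3 rose and PPT1 was not called. The share of all genes tested that were higher was 11.9%. PSAP encodes prosaposin, the precursor of the saposins, which activate the enzymes of sphingolipid breakdown. It had 582, 586 and 626 CPM without Dox and 1155, 976 and 1271 CPM with Dox, so that every library with Dox was above every library without. Its log2 fold change was 0.92 (SE 0.13, adjusted p = 5.24e-05), and 0.83 to 1.05 over the alternatives. GM2A, the GM2 activator protein, which lifts the ganglioside GM2 out of membranes for hexosaminidase A, was a low-count gene. Its levels were 4.44, 6.82 and 4.89 CPM without Dox and 9.35, 11.7 and 10.1 CPM with Dox. The fitted log2 fold change was 0.96 (SE 0.27, adjusted p = 0.0151). HEXA, the alpha subunit of that enzyme, was at 0.32 (95% interval -0.06 to 0.71, adjusted p = 0.217).

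GRN, progranulin, is a secreted and lysosomal protein that is cut into granulins and travels to lysosomes with prosaposin. It had 301, 333 and 237 CPM without Dox and 398, 388 and 448 CPM with Dox, again with no overlap. The log2 fold change was 0.51 (SE 0.14, adjusted p = 0.0121). PPT1, which strips palmitate from proteins, had 301, 299 and 285 CPM without Dox and 240, 230 and 265 CPM with Dox. The groups did not overlap and the values were the lower ones with Dox, but the log2 fold change of -0.27 missed the threshold (adjusted p = 0.112). GM2A lost its call without replicate 1 (0.84, adjusted p = 0.0765) or replicate 3 (0.88, 0.0664) of the control libraries, and GRN without replicate 3 of the control libraries (0.37, 0.0718). Over the alternatives the adjusted p ran from 0.00697 to 0.0765 for GM2A and from 0.00282 to 0.0718 for GRN.

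Among the 3 sulfatases, ARSA and SGSH rose and ARSB was not called (11.9% of all genes tested were higher). ARSA, arylsulfatase A, removes sulfate from the myelin lipid sulfatide with the help of a saposin made from PSAP. It had 59.0, 59.9 and 53.4 CPM without Dox and 83.1, 75.1 and 98.3 CPM with Dox, with no overlap. This was a log2 fold change of 0.58 (SE 0.14, adjusted p = 0.00495), and 0.47 to 0.71 over the alternatives. SGSH, the sulfamidase of heparan sulfate breakdown, had 16.2, 13.96 and 16.9 CPM without Dox and 29.6, 20.9 and 23.0 CPM with Dox. On the log2 scale the difference was 0.63 (SE 0.20, adjusted p = 0.0246). The call was lost without replicate 1 (0.63, adjusted p = 0.0725) or 2 (0.55, 0.0844) of the control libraries and without replicate 1 of the OE libraries (0.48, 0.132), within a range of 0.00852 to 0.132 over all alternatives. SGSH shares 230 exon bases with CARD14 and 8 with SLC26A11 on the opposite strand in GENCODE 44. The use of strand in counting is not stated, and SLC26A11 itself had a log2 fold change of 0.82 (adjusted p = 0.00380). ARSB, which acts on dermatan and chondroitin sulfate, was at 0.39 (95% interval -0.23 to 0.998).

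Of the 8 glycosidases, 1 fell and none rose, beside 13.7% lower and 11.9% higher over all genes tested. GLA, alpha-galactosidase A, removes terminal galactose from globotriaosylceramide and is the enzyme deficient in Fabry disease. It had 12.8, 11.8 and 18.9 CPM without Dox and 9.79, 10.02 and 6.96 CPM with Dox, and the groups did not overlap. Its log2 fold change was -0.75 (SE 0.25, adjusted p = 0.0359). This call was the least stable of the 13: it was kept in 6 of 14 alternatives, whose adjusted p ran from 0.0140 to 0.244. It was lost without replicate 1 (-0.85, adjusted p = 0.05005) or 3 (-0.49, 0.244) of the control libraries and without replicate 1 (-0.84, 0.0591) or 3 (-0.58, 0.128) of the OE libraries. GLA shares 557 exon bases with RPL36A, on the opposite strand, whose log2 fold change was -0.21 (adjusted p = 0.560). NEU1, the lysosomal sialidase, was at 0.35 (adjusted p = 0.0697). It passed the threshold in 4 alternatives, among them the fit without replicate 2 of the OE libraries (0.44, adjusted p = 0.0212; range 0.0161 to 0.256). The remaining 6 glycosidases, GAA, GLB1, GUSB, HEXA, MANBA and NAGLU, had log2 fold changes of -0.08 to 0.33. HEXA passed in the same fit (0.48, adjusted p = 0.0405; range 0.0405 to 0.653).

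**Figure D3:**
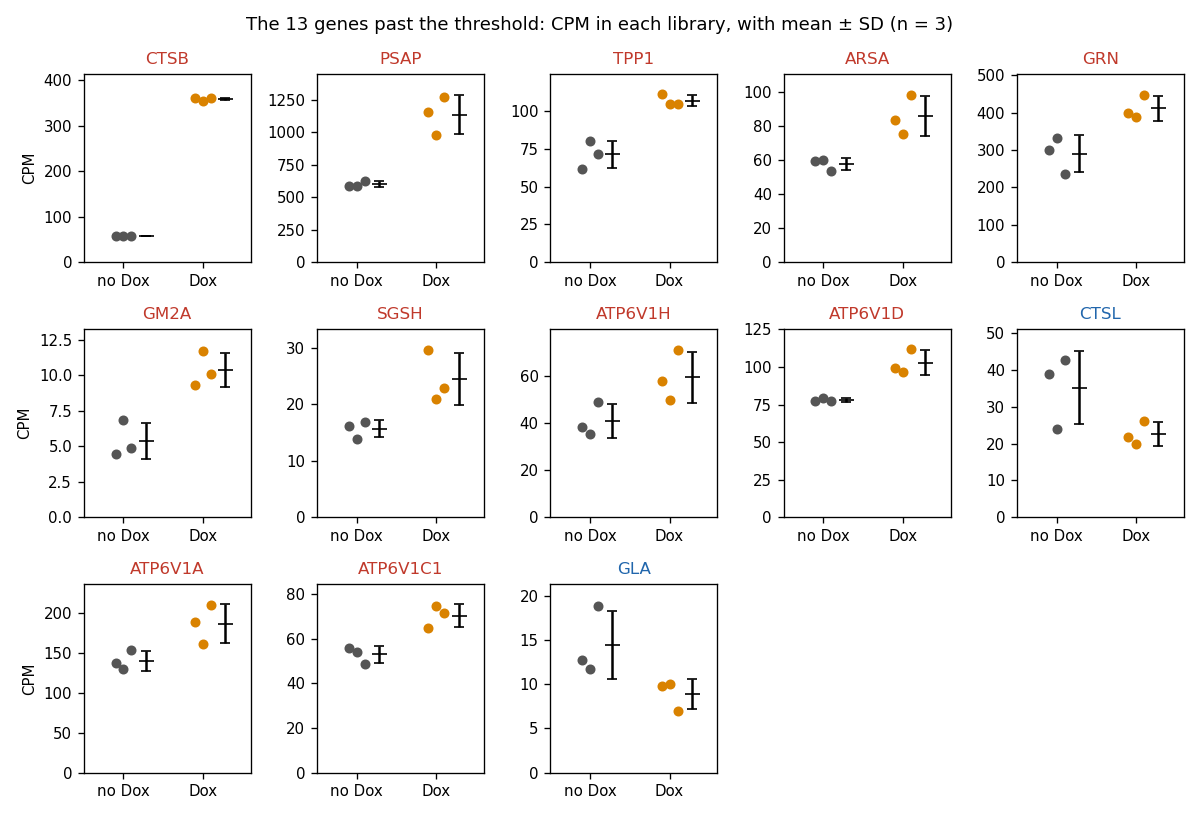
CPM (vertical axis, from 0) in each of the 6 libraries (points) for the 13 members that passed the test, without Dox (grey) and with Dox (orange), with mean ± SD (n = 3) beside them; names are red for a rise and blue for a fall. CTSB goes from 56.7 to 57.2 CPM without Dox to 355 to 361 CPM with Dox, and of the 13 called members CTSL is the one whose groups overlap.

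Among the V-ATPase subunits, 4 of the 7 V1 members rose and none fell, with a median log2 fold change of 0.40, beside 11.9% higher and 13.7% lower over all genes tested. The V1 members that were not called were ATP6V1B2, ATP6V1E1 and ATP6V1F. Of the 5 V0 members none was called, beside 25.5% of all genes, with a median of -0.02. The 2 accessory subunits, ATP6AP1 and ATP6AP2, were not called. ATP6V1A, the catalytic subunit that holds the ATP site, had 138, 130 and 154 CPM without Dox and 189, 162 and 210 CPM with Dox. The fitted log2 fold change was 0.41 (SE 0.13, adjusted p = 0.0282). Every library with Dox was above every library without Dox. ATP6V1H, a regulatory subunit of V1 that also contacts the V0 sector, had 38.1, 35.4 and 48.9 CPM without Dox and 57.8, 49.5 and 70.8 CPM with Dox. The log2 fold change was 0.54 (SE 0.17, adjusted p = 0.0247), and the lowest library with Dox was only just above the highest without it.

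ATP6V1D, a subunit of the central rotor, had 77.3, 79.4 and 77.5 CPM without Dox and 99.2, 96.8 and 112 CPM with Dox. This was a log2 fold change of 0.40 (SE 0.13, adjusted p = 0.0263), with no overlap. ATP6V1C1, a stator subunit at the V1 to V0 junction, had 55.9, 54.3 and 48.9 CPM without Dox and 64.8, 74.9 and 71.7 CPM with Dox. On the log2 scale the difference was 0.41 (SE 0.14, adjusted p = 0.0326), with no overlap. ATP6V1E1, a peripheral stalk subunit, had 163, 195 and 179 CPM without Dox and 219, 203 and 221 CPM with Dox. Its groups did not overlap, and its log2 fold change of 0.26 missed the threshold (adjusted p = 0.126). ATP6V1F, a rotor subunit, was at 0.36 (adjusted p = 0.0698), and ATP6V1B2, the non-catalytic partner of ATP6V1A, at -0.13 (95% interval -0.40 to 0.13).

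These 4 V1 calls rested on the full set of libraries. ATP6V1A lost its call without replicate 1 or 2 of the control libraries (adjusted p = 0.118 and 0.117) and without replicate 1 or 3 of the OE libraries (0.0917 and 0.0946), with log2 fold changes of 0.32 to 0.40 in these fits. ATP6V1H lost it without the same libraries (adjusted p = 0.113, 0.1001, 0.0607 and 0.113), with values of 0.38 to 0.56. ATP6V1D lost it without any 1 library but replicate 2 of the OE group, with values of 0.33 to 0.42 and adjusted p of 0.0634 to 0.109. ATP6V1C1 lost it without each of the 6 libraries in turn, with values of 0.35 to 0.47 and adjusted p of 0.0512 to 0.125. Over all 14 alternatives the lowest adjusted p was 0.00631 for ATP6V1A, 0.00460 for ATP6V1H, 0.00540 for ATP6V1D and 0.00746 for ATP6V1C1. ATP6V1F, not called in the full fit, passed in 5 alternatives, among them the fits without replicate 2 of the control libraries (0.50, adjusted p = 0.0187) and without replicate 2 of the OE libraries (0.40, 0.0497), in a range of 0.0161 to 0.306.

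In V0, ATP6V0C, the proteolipid of the rotating ring, had a log2 fold change of -0.05 (95% interval -0.32 to 0.22). ATP6V0A1, which holds the path of the protons, was at -0.02 (-0.29 to 0.25). ATP6V0D1, which couples the ring to V1 and carries the TCACGTGA shown above, was at 0.02 (-0.30 to 0.33). ATP6V0B, another proteolipid, was at -0.22 (-0.48 to 0.03), and ATP6V0E1 at 0.13 (-0.12 to 0.38). The upper ends of these intervals were 0.03 to 0.38, and the fitted values of the 7 V1 members ran from -0.13 to 0.54. As log2 ratios to the mean without Dox, with 0.5 CPM added, the mean in each library was 0.32, 0.23 and 0.42 over the V1 members with Dox and 0.0030, -0.10 and 0.0058 over the V0 members. The difference of the means, V1 minus V0, was -0.18, 0.05 and 0.13 in the libraries without Dox and 0.31, 0.32 and 0.41 in those with Dox. These differences did not overlap between the conditions, and no test was made of them. The V1 mean includes the members called higher in these same libraries. Related V-ATPase genes outside the members are in neither mean, and none of those named next was called. In V1, ATP6V1C2, another gene of the C subunit, had a mean of 125 CPM without Dox and 109 CPM with Dox. Its log2 fold change was -0.20, opposite in direction to ATP6V1C1, and that of ATP6V1G1 was 0.31. In V0, ATP6V0A2 was at -0.23, ATP6V0E2 at -0.19 and TCIRG1 at -0.31. ATP6AP1, the accessory subunit Ac45, had 260, 267 and 235 CPM without Dox and 320, 289 and 334 CPM with Dox. Its groups did not overlap, its log2 fold change of 0.31 missed the threshold (adjusted p = 0.0716), and it passed without replicate 2 of the OE libraries (0.36, adjusted p = 0.0434; range over the alternatives 0.0137 to 0.220). ATP6AP2, the prorenin receptor, was at 0.04 (95% interval -0.23 to 0.30).

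**Figure D4:**
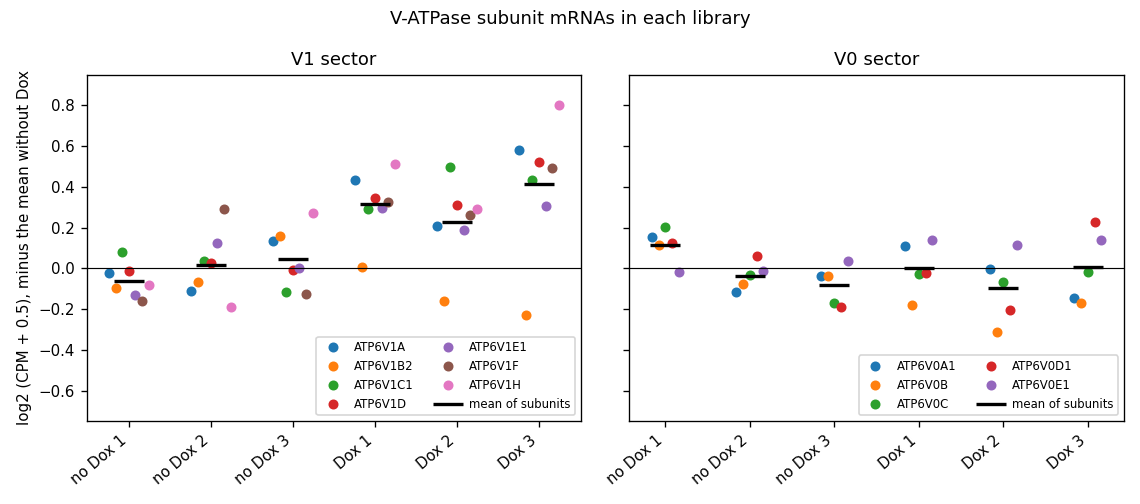
Log2 ratio of each V-ATPase subunit in each library to its mean without Dox (vertical axis), with V0 and V1 members in separate panels; points are genes and bars are the means over the members in a library. The V1 means are 0.23 to 0.42 with Dox, and the V0 means with Dox lie between -0.10 and 0.0058.

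None of the 6 lysosomal membrane proteins passed the test, beside 25.5% called over all genes tested. LAMP1, a heavily glycosylated protein of the limiting membrane, had 236 to 274 CPM without Dox and 262 to 315 CPM with Dox, and a log2 fold change of 0.19 (95% interval -0.07 to 0.45). LAMP2, its relative that also serves in autophagy, was at -0.10 (-0.39 to 0.19). SCARB2, the transport receptor of glucocerebrosidase, was at 0.17 (-0.09 to 0.43), and CD63, a tetraspanin of late endosomes and exosomes, at -0.15 (-0.43 to 0.13). MCOLN1, the calcium channel of the lysosome, was at 0.11 (-0.39 to 0.62) and rested on 7.84 to 10.6 CPM. The CLN3 groups did not overlap, with lower values with Dox, but its log2 fold change of -0.18 missed the threshold (adjusted p = 0.384).

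Among the 43 members tested, the libraries of the conditions did not overlap for 14 genes that were higher and 4 that were lower with Dox. Over all genes tested, 19% did not overlap with higher values and 20.5% with lower values. The summed counts of the 44 members were 7991 to 8220 CPM without Dox and 9403, 8293 and 9555 CPM with Dox. Without PSAP and CTSB the sums were 7308 to 7581 CPM without Dox and 7887, 6962 and 7924 CPM with Dox. Replicate 2 with Dox, which had the largest share of reads assigned to no feature, then lay below all control libraries. These sums weigh abundant genes most. CD63, the most abundant member, had 2152, 2233 and 2398 CPM without Dox and 2290, 1780 and 2030 CPM with Dox. The low sum of replicate 2 is therefore not a value for the members in general.

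Other lysosome-related genes, in 6 lists, are given for context. Of their 162 genes, 142 were tested, 25 rose and 10 fell (24.6% called, close to the 25.5% of all genes tested), with a median log2 fold change of 0.14. The number called was 21 without replicate 1 of the control libraries, a fit in which the share of all genes called was 17.2%. The counts of the single lists below stand beside 11.9% higher and 13.7% lower over all genes tested. The 31 further hydrolases and cofactors held 11 that rose and 1 that fell, with a median of 0.27. IDS, which removes sulfate from heparan and dermatan sulfate, rose by 1.15 on the log2 scale (adjusted p = 2.08e-05). PLD3, a lysosomal exonuclease, rose by 1.46 (adjusted p = 2.97e-05). The 15 further V-ATPase subunits and assembly factors held 1 that rose, ATP6AP1L (1.11, adjusted p = 6.15e-04), and 1 that fell, VMA21 (-0.46, 0.0144), a chaperone of V0 assembly.

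Of 30 further membrane proteins and transporters, 4 rose and 3 fell. SLC36A1, a lysosomal amino acid transporter, was at 1.12 (adjusted p = 3.93e-05), SLC17A5, the sialic acid exporter, at 0.88 (3.59e-04), and MFSD1, a peptide transporter, at 0.64 (0.00404). TMBIM1 was at -0.89 (1.58e-04), SLC11A2, an iron transporter, at -0.56 (0.00521), and TMEM55B, a phosphoinositide phosphatase, at -0.43 (0.0297). Of 18 genes of the mannose phosphate tag and the sorting receptors, 3 rose and 1 fell. SORL1, a sorting receptor of the Golgi and endosomes, was at 1.56 (0.00419), CLN8, an export receptor for lysosomal enzymes in the endoplasmic reticulum, at 0.69 (0.00438), and GGA3, a coat adaptor of the Golgi, at 0.57 (0.0228). CLN6, a partner of CLN8 in that export, was at -0.57 (0.0375).

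Of 29 genes of the HOPS, CORVET, BORC and AP-3 trafficking complexes and their fusion factors, 6 rose and 3 fell. STX7, a fusion protein of late endosomes, was at 0.55 (adjusted p = 0.0109), VPS11, a core subunit of HOPS, at 0.48 (0.0255), and BORCS5, a subunit of BORC, at 0.68 (0.0299). BLOC1S1 was at -0.99 (2.88e-05), SNAPIN at -0.65 (8.31e-04) and BORCS6 at -0.38 (0.0360), and all 3 are BORC subunits. Of the 19 tested genes of the TFEB family and of nutrient sensing at the lysosome, none rose and 1, FNIP2, a folliculin partner, fell (-0.80, adjusted p = 0.00177). TFEB had 7.84, 6.20 and 7.86 CPM without Dox and 10.9, 11.7 and 9.46 CPM with Dox, a log2 fold change of 0.52 (adjusted p = 0.137). TFE3 was at 0.47 (0.142) and MITF at 0.14 (0.677), and TFEC had no counts in any library.

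**Figure D5:**
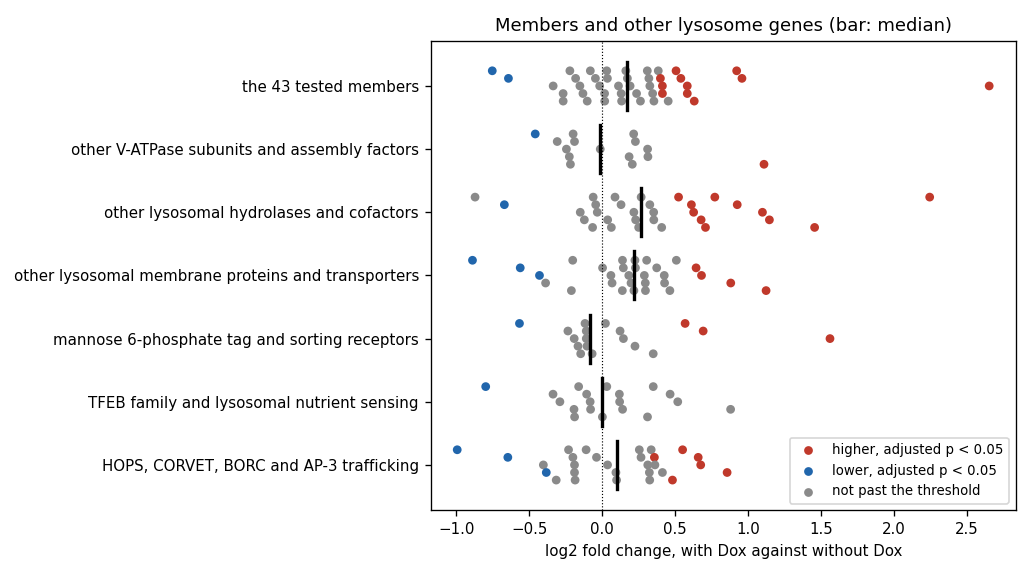
Log2 fold change with Dox against without Dox (horizontal axis) for the 43 members and the 142 tested genes of 6 further lists; each point is 1 gene, the bar is the list's median and colours give the call. The further hydrolases have 11 red points and 1 blue one, and the nutrient sensing list has a single blue point.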

How the data were processed

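The authors prepared 3ʹ mRNA-seq libraries (the methods name the REV kit of Lexogen, the labels the FWD kit), sequenced 100 bp single-end reads and mapped them to hg38 with STAR. HTSeq, CASAVA 1.8.2 and edgeR are also named in the submitters' processing notes, and the annotation and use of strand are not given in the sources used here. The deposited counts per gene symbol of all 6 libraries, without normalization, were tested. A deposited normalized signal for each library, whose scaling is not stated, served as an alternative (limma 3.58.1, log2 of the signal plus 1), without 27 rows whose names differ. The 5 rows that name no gene were left out.

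Counts were tested with edgeR 4.0.16 in R 4.3.3 (TMM, filterByExpr at its defaults, quasi-likelihood test; calls at a Benjamini-Hochberg p under 0.05) over 12233 genes, and tests were tried on simulated counts. A total of 3 counts, taken as the limit of detection, are 0.394 to 0.930 CPM. This covers counting error only. Log2 ratios per library used 0.5 CPM as pseudocount. Alternatives were other scalings, filters, DESeq2 1.42.0, the deposited signal, a block for replicate number and fits without 1 library. The members, gene lists and motifs were chosen with earlier results of these data known, so no test was made over a list. Named were members by role, with values in every library for those called or not overlapping at an unadjusted p under 0.05. Also named were at most 3 genes per direction and further list, the TFEB family, and tested V0 and V1 genes outside the members. A few genes within this rule are not reported here. Coordinates are those of GENCODE 44 on hg38 and RefSeq GRCh38.p14.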

Additional observations from a re-analysis of the deposited data

How the results depend on the processing

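CTSB, PSAP, TPP1 and ARSA kept direction and call in all 14 alternatives, as did ABHD5, and no called member changed sign in any. The number of members that rose was 5 to 14 with 1 library left out, and the number that fell 0 to 2. That number of falls was also 1 with upper-quartile scaling, 0 with library totals alone, 1 with DESeq2 and 0 with the deposited normalized signal. GLA lost its call in these 4 settings (adjusted p = 0.05004, 0.0719, 0.0586 and 0.0673, in a range of 0.0140 to 0.244 over its alternatives), and CTSL with library totals (0.0679) and the deposited signal (0.0552, in a range of 0.00264 to 0.142). The median of the members was 0.29 with library totals alone, a scaling that moves the median of all genes to 0.14, and 0.12 to 0.26 with 1 library left out. The number of other lysosome genes called was 21 to 37 with 1 library left out, against 35. Over all genes, 2181 to 3112 were called with 1 library left out, against 3125. Fits without 1 library have fewer libraries and so less power, and other causes were not tested.

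The labels number the replicates in both groups, and whether the numbers pair the libraries is not given. Deviations from the group means correlated at -0.01, 0.23 and 0.09 for numbers 1, 2 and 3. Of the 3 control libraries, 1 correlated best with its own number. These values cannot decide whether the libraries were paired, because each group holds only 3 libraries. With a replicate block, 13 members rose and 2 fell (NEU1 and ATP6V1F passed in addition, with adjusted p = 0.0437 and 0.0384, in ranges of 0.0161 to 0.256 and 0.0161 to 0.306 over their alternatives), 3537 genes were called over all genes, and the median of the members was 0.17. Low counts limit GM2A, GLA, CTSA, CTSH, ARSB and MCOLN1, and CTSS could not be tested.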
